A study of Rattus norvegicus with 8 samples.

Results

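Fmo1, Fmo4, Fmo5, Aox1, Xdh, Maoa and Maob encode oxidases other than cytochromes P450 that act on drugs, aldehydes, purines and amines. These 7 genes were chosen as a list of non-P450 oxidases, and each was represented by 1 probe among the 27530 genes or unnamed probes of the array. They were measured in liver RNA of 21-day-old male Sprague-Dawley rats that stayed with their birth mothers. Dams of the 0.5MAhR group were given, in corn oil, 0.5 mg/kg/day of a mixture of methyl mercury, PCBs (polychlorinated biphenyls) and organochlorine pesticides. Added to it were agonists of the aryl hydrocarbon receptor (AhR), which brought the dose to 6.3 ng/kg/day in dioxin equivalents. Dams of the Control group received corn oil alone. Dosing spanned pregnancy and nursing. Each array held pooled RNA of 2 pups, giving 4 arrays of each group from 8 pups, and the litters behind the pools are not given in the sources used here. The p-values therefore measure the spread between pools, in which pups may share a litter. On each array liver RNA was labelled with Cy5 and hybridised against a Cy3-labelled reference, a universal RNA of 14 rat cell lines, and values are log2 ratios of liver over reference. In such bulk RNA, fewer cells of a type and less RNA per cell cannot be told apart.

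Flavin-containing monooxygenases use bound flavin, NADPH and oxygen to oxidise the nitrogen and sulphur of drugs and dietary amines. Aldehyde oxidase (Aox1) and xanthine dehydrogenase (Xdh) are related enzymes that carry a molybdenum cofactor, iron-sulphur clusters and flavin. Aox1 oxidises aldehydes and nitrogen-containing rings, and Xdh makes the last steps of purine breakdown to urate. The monoamine oxidases Maoa and Maob are flavin enzymes of the outer mitochondrial membrane that remove the amino group of serotonin, catecholamines and trace amines. In mice, dioxin is known to raise liver Xdh transcripts through the AhR, the receptor that the agonists of the mixture bind.

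Promoter windows from RefSeq (GRCr8), running from 250 bases before to 50 bases after each gene start, were at hand for 6 of the 7 genes, all but Fmo4. The motif of the AhR and its partner, GCGTG, was searched on both strands and was found in the windows of Fmo5 and Maob, against 29.7% of 33465 windows of the same length. The antioxidant motif TGACNNNGC, in which N is any base, was in none of the 6 windows, against 12.1% of all windows. With no antioxidant motif present, the 2 motifs could not overlap in the windows shown. Shown here are the windows of Aox1, which had the largest difference between the groups among the 6 tested genes, and of Fmo5 and Maob. Capitals mark the GCGTG motif as read on the printed strand, so that CACGC is the motif on the other strand. It lies 146 bases before the start in Fmo5 and 78 bases before it in Maob. The Fmo5 window lies within the span of that gene, which has several transcripts. The Aox1 window is at chr9:67073641-67073940 (plus strand), the Fmo5 window at chr2:187910714-187911013 (plus strand) and the Maob window at chrX:8490155-8490454 (plus strand).
Aox1: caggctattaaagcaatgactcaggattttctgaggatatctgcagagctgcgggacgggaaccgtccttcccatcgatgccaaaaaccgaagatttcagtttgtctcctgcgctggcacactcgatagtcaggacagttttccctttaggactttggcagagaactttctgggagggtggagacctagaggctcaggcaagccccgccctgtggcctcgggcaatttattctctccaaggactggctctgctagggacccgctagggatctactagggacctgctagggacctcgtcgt
Fmo5: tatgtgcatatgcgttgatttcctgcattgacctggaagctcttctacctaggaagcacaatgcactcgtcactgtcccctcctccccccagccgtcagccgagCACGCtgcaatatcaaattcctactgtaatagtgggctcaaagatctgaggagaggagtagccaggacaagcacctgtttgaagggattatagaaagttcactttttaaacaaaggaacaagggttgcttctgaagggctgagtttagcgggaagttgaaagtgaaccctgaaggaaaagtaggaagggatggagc
Maob: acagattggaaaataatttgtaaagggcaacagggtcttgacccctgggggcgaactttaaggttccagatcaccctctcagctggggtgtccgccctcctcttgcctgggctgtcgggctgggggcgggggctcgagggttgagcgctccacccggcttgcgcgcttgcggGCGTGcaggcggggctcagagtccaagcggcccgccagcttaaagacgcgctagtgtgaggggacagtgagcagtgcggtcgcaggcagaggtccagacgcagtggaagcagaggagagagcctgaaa

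Aox1 and Fmo1 lie in gene clusters. The next coding gene after Aox1 is Aox3, a second aldehyde oxidase, and Fmo1 lies between Fmo4 and Fmo2. Maoa and Maob are neighbours on the X chromosome. Sequences of the array probes were not used here, so cross-hybridisation between such related genes was not checked.

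Of the 7 genes, 6 were well above background in Cy5 on all 8 arrays and were tested, and 5 of these were so in Cy3 as well. Maob was not well above background in Cy3 on any array. Fmo4, a flavin monooxygenase, was not well above background in either channel on any array. Its net Cy5 intensity was 13.75, 10.25, 15 and 19 on 0.5MAhR arrays 1 to 4 and 6.5, 7.75, 8.5 and 10.75 on Control arrays 5 to 8. These ranges overlapped, while the log2 ratios did not, at 0.26, 0.23, 0.29 and 0.33 in 0.5MAhR livers and 0.10, 0.07, 0.12 and 0.09 in Control livers. The log2 Cy5 signals after between-array scaling did not overlap either, at 6.19 to 6.31 in 0.5MAhR and 6.09 to 6.13 in Control livers. Of the genes tested, which leave out Fmo4, 1.32% had log2 ratios that did not overlap. With both channels near background, no fold is given. Without a filter on dim probes 0 of the 7 genes passed between the groups in limma.

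The arrays lay on 1 slide, and 2 numbers index their position on it. The labels do not say what the first index stands for. It is called the slide side for short, and sides 1 and 2 each held 2 arrays of each group. The first principal component of 10566 genes or unnamed probes held 69.1% of the variance and separated the sides, and 57% of them differed between the sides past an adjusted p of 0.05 in limma. The sides are therefore fitted or shown beside the main values. The share of spots well above background was 42.9% to 49.2% in Cy5, against 64.3% to 67.8% in Cy3, and no spot was saturated. All 9 hepatocyte markers tested lay above the reference in limma in Control livers. Averaged over these markers, the log2 ratio was 5.93 to 6.32 on 0.5MAhR arrays and 6.12 to 6.32 on Control arrays. Cyp1a1, the classical AhR-induced P450, served as a check of exposure, with a mean log2 ratio of 4.93 in 0.5MAhR livers and 0.90 in Control livers (difference 4.04, SE 0.33, adjusted p = 0.00925 in limma). Of the 8 AhR target genes listed for this check, 5 were tested, 4 of them with a difference above 0, 1 passed and 3 had an unadjusted p under 0.05. Among all genes tested, 46.8% had a difference above 0, 0.00946% passed and 1.53% had an unadjusted p under 0.05 in limma. Of the listed AhR targets that did not pass, Nqo1 differed by 0.90 (SE 0.29, unadjusted p = 0.0118 in limma, or 0.000381 with slide side fitted). Ugt1a6 differed by 0.51 (SE 0.16, unadjusted p = 0.0117 in limma, or 0.0034 with slide side fitted). Cyp1a2, another AhR-induced P450, differed by 0.12 and Aldh3a1, an aldehyde dehydrogenase, by -0.11 (adjusted p = 1.00 in limma for both). The Cy3 signal of Cyp1a2 alone differed by 1.38, so its ratio does not follow the liver signal alone. Whether the liver signal of Cyp1a2 changed cannot be read from this ratio. The cause of the Cy3 difference was not tested. In Cy3 alone 1 gene passed in limma, or 0.00946% of all genes.

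Aox1 showed the largest difference of the 6 tested genes, which missed the threshold over all genes. Its log2 ratio was 3.93, 3.28, 3.91 and 3.58 in 0.5MAhR livers 1 to 4, against 2.58, 3.50, 2.97 and 3.12 in Control livers 5 to 8. Taken over all arrays the groups overlapped, since 0.5MAhR liver 2 lay below Control liver 6, which had the other side index. Within each side every 0.5MAhR liver lay above every Control liver. That was so for Aox1 alone of the 6 genes, against 6.71% of all genes tested in either direction and 3.29% with 0.5MAhR higher. The means were 3.68 ± 0.31 in 0.5MAhR and 3.04 ± 0.38 in Control livers (SD, n = 4 each), a difference of 0.64 on the log2 scale (SE 0.22, 95% interval 0.14 to 1.13), or 1.55-fold. The adjusted p was 1.00 in limma over all 10566 genes, with an unadjusted p of 0.0169.

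With slide side fitted, the Aox1 difference of 0.64 had an SE of 0.12 and a 95% interval of 0.37 to 0.90, and its adjusted p was 0.191 in limma (unadjusted p = 0.000347). By unadjusted p it then ranked 18 among the 10566 genes, against 57 in the fit without slide side. With the second position index as a block instead, which pairs 1 array of each group, the SE was 0.28 (unadjusted p = 0.0652, adjusted p = 1.00 in limma). The arrays of each such pair lay on different slide sides, so the side difference stayed in the spread of this fit. The mean log2 ratio on side 1 was 3.43 in 0.5MAhR and 2.77 in Control livers, a difference of 0.66. On side 2 it was 3.92 in 0.5MAhR and 3.31 in Control livers, a difference of 0.61. Aox1 itself was 0.51 higher on side 2 than on side 1 (SE 0.12, adjusted p = 0.00433 in limma), which is nearly as large as the difference between the groups.

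The Aox1 difference lay in the liver channel. The net Cy5 intensity was 4242.5, 2624.2, 6114.8 and 4482.2 on 0.5MAhR arrays 1 to 4, against 1684.5, 3252.5, 2461 and 3359.8 on Control arrays 5 to 8. The net Cy3 intensity of the reference RNA at the same probe averaged 716 ± 22.9 on 0.5MAhR arrays and 722 ± 38.8 on Control arrays (SD, n = 4 each). In Cy5 alone the difference was 0.64 (adjusted p = 1.00 in limma, or 0.0926 with slide side fitted), and in Cy3 alone it was -0.03 (adjusted p = 1.00). The reference signal at this probe thus differed by far less than the liver signal.

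**Figure D1:**
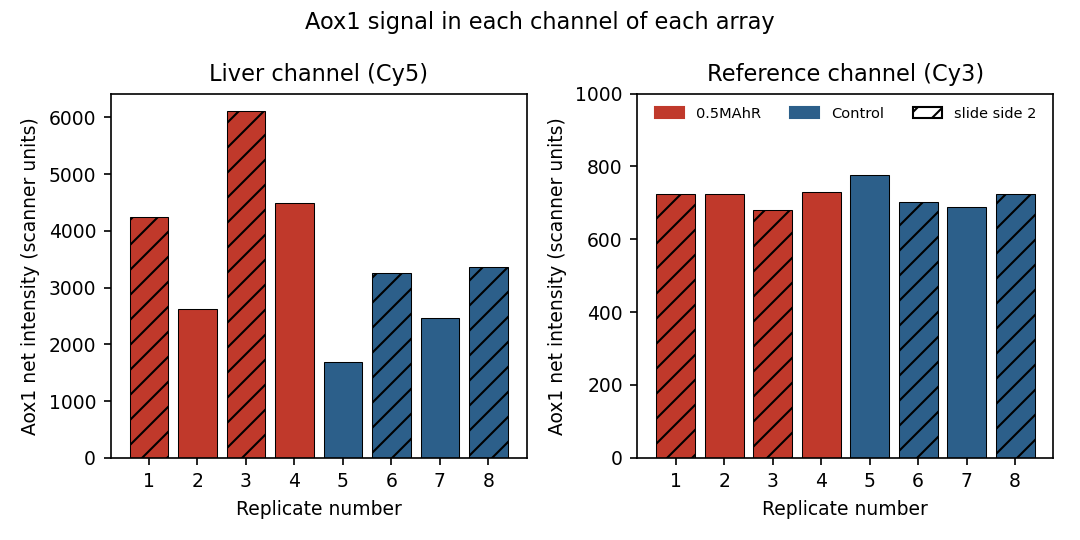
Net intensity (median spot signal minus local background, scanner units) of the Aox1 probe in the liver channel and in the reference channel for each array, numbered by replicate, with hatched bars for slide side 2. Cy5 bars of 0.5MAhR livers exceed those of Control livers within each slide side, while Cy3 averaged 716 and 722 in the 2 groups.

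Xdh, the relative of Aox1 that also carries molybdenum, showed no difference beyond its spread. Its log2 ratio was 1.58, 1.43, 1.70 and 1.57 in 0.5MAhR livers 1 to 4, against 1.31, 1.36, 1.51 and 1.79 in Control livers 5 to 8. The ranges overlapped, and the highest value was that of Control liver 8. The difference was 0.07 (SE 0.13, 95% interval -0.21 to 0.36, adjusted p = 1.00 in limma), or 0.09 on slide side 1 and 0.06 on side 2. An increase of 1.5-fold lies outside that interval, whose upper end is 0.36 on the log2 scale.

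Fmo1, the flavin monooxygenase best known from rodent liver and kidney, had log2 ratios of 2.82, 2.73, 2.78 and 3.22 in 0.5MAhR livers 1 to 4, against 2.62, 3.01, 2.65 and 2.96 in Control livers 5 to 8. The groups overlapped, and 0.5MAhR liver 4 stood above the other 7 arrays. The difference was 0.08 (SE 0.15, 95% interval -0.25 to 0.41, adjusted p = 1.00 in limma). It was 0.34 on slide side 1 and -0.18 on side 2, so that its sign turned between the sides. The interaction of group and slide side was -0.52 (SE 0.21, adjusted p = 0.942 in limma, unadjusted p = 0.0372). Of all genes, 5.01% had an unadjusted p under 0.05 for this interaction and 0 passed after adjustment.

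Fmo5, a flavin monooxygenase that acts poorly on the usual amine substrates of the family, had log2 ratios of 3.34, 2.60, 3.40 and 3.09 in 0.5MAhR livers 1 to 4, against 2.68, 3.25, 2.99 and 3.37 in Control livers 5 to 8. The groups spanned nearly the same range. The probe was printed in 10 spots per array, and 5 spots over all arrays were left out as outliers. The difference was 0.04 (SE 0.21, 95% interval -0.44 to 0.52, adjusted p = 1.00 in limma), or 0.01 on side 1 and 0.06 on side 2. The slide sides separated it instead, with 0.50 more on side 2 than on side 1 (SE 0.11, adjusted p = 0.00423 in limma). In both groups the 2 arrays of side 2 lay above the 2 arrays of side 1. The net Cy3 intensity at the Fmo5 probe was 63.1 ± 5.87 on 0.5MAhR and 52.2 ± 5.10 on Control arrays (SD, n = 4 each). In Cy5 alone Fmo5 differed by 0.09. In Cy3 alone it differed by 0.12 (unadjusted p = 0.153 in limma, or 0.00933 with slide side fitted), which did not pass after adjustment.

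Maoa, which prefers serotonin and noradrenaline, had log2 ratios of 1.58, 1.82, 2.01 and 1.88 in 0.5MAhR livers 1 to 4, against 1.73, 1.59, 1.83 and 1.95 in Control livers 5 to 8. The difference was 0.04 (SE 0.12, 95% interval -0.24 to 0.33, adjusted p = 1.00 in limma), and it was 0.07 on side 1 and 0.02 on side 2. The ranges overlapped almost fully.

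Maob, which prefers phenylethylamine and other trace amines, had log2 ratios of 2.30, 2.07, 2.55 and 2.33 in 0.5MAhR livers 1 to 4, against 2.15, 2.05, 2.30 and 2.64 in Control livers 5 to 8. The difference was 0.03 (SE 0.15, 95% interval -0.32 to 0.38, adjusted p = 1.00 in limma), with -0.03 on side 1 and 0.08 on side 2. Here too the groups overlapped.

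Within each group, Xdh, Maoa and Maob were all highest on the same arrays, 0.5MAhR array 3 and Control array 8. Fmo5 was highest on these arrays too, at 3.40 and 3.37. Both arrays lay on slide side 2, and their median Cy5 signals of 91 and 93 were among the 3 highest of the 8 arrays. The highest median, 94, was that of 0.5MAhR array 4 on side 1. The part of signal strength in this shared order was not tested.

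**Figure D2:**
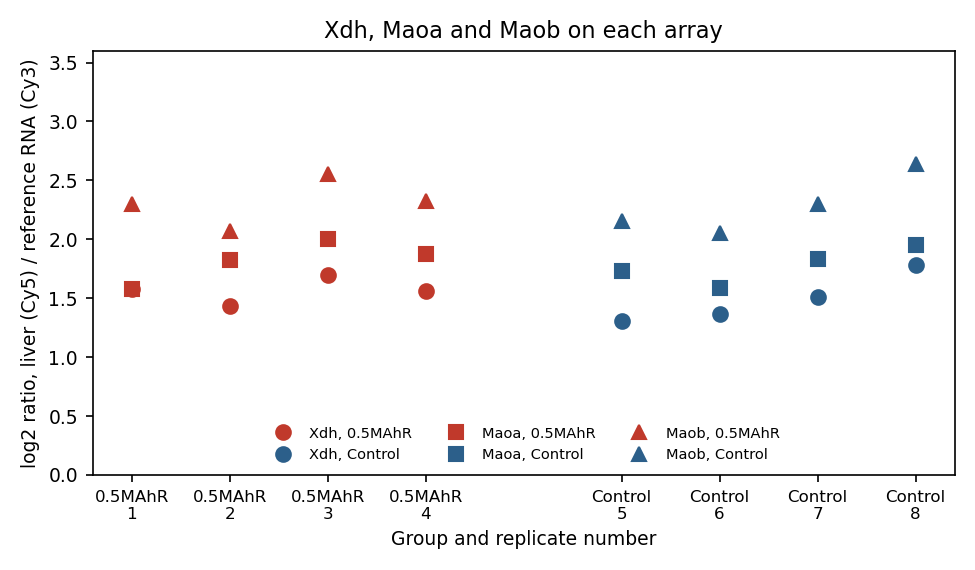
Log2 ratio of liver over reference RNA for Xdh (circles), Maoa (squares) and Maob (triangles) on each array, by group and replicate number. Each gene reaches the highest value of its group on 0.5MAhR array 3 and on Control array 8, as did Fmo5, which is not drawn here.

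**Figure D3:**
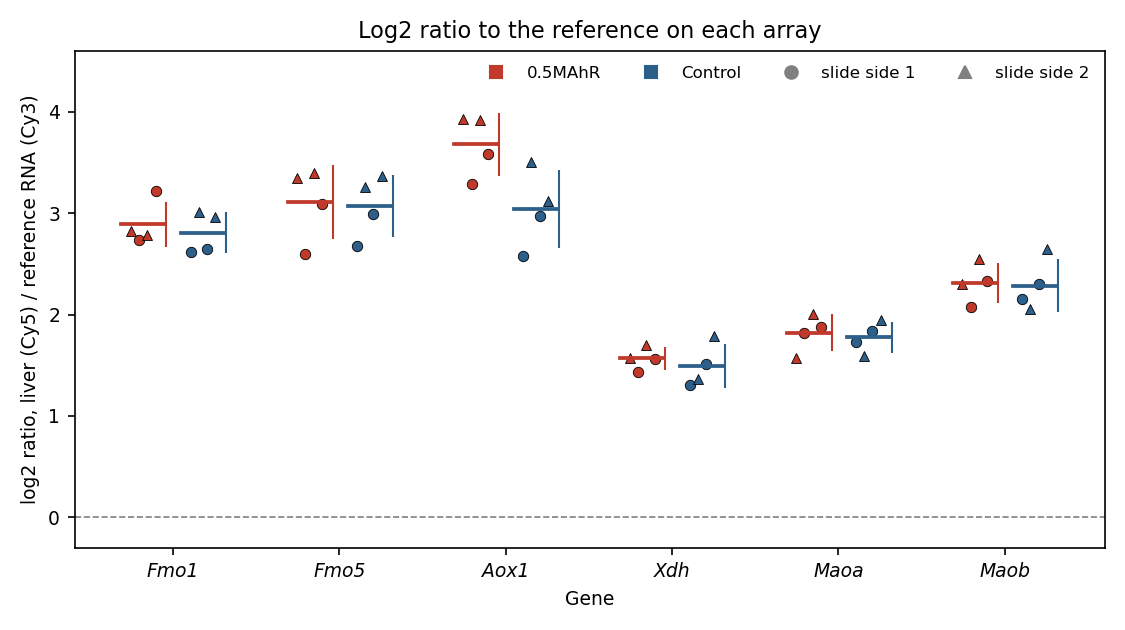
Log2 ratio of liver over reference RNA of the 6 tested genes on each array (points; circles for slide side 1, triangles for slide side 2), with group means (horizontal lines) and SD (vertical lines, n = 4). All points lie above 0, and for Aox1 the 0.5MAhR points of each side lie above the Control points of that side.

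Of the 6 tested genes, 0 passed an adjusted p of 0.05 in limma, and 1, Aox1, had an unadjusted p under 0.05. Over all genes 0.00946% passed after adjustment, the single gene Cyp1a1, and 1.53% had an unadjusted p under 0.05. With slide side fitted, 0 of the 6 passed, against 0.0473% of all genes, and 1 had an unadjusted p under 0.05, against 6.35%. The groups did not overlap for 0 of the 6 genes and for 1.32% of all genes. The differences of all 6 were above 0, where 46.8% of all genes had a difference above 0, with a median of 0.06 for the 6 and -0.01 for all genes tested. The difference had the same sign at both side indices for 4 of the 6 and for 51.8% of all genes. Apart from Aox1 these differences were at most 0.08, less than the SE of each, and several turned sign with the processing.

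**Figure D4:**
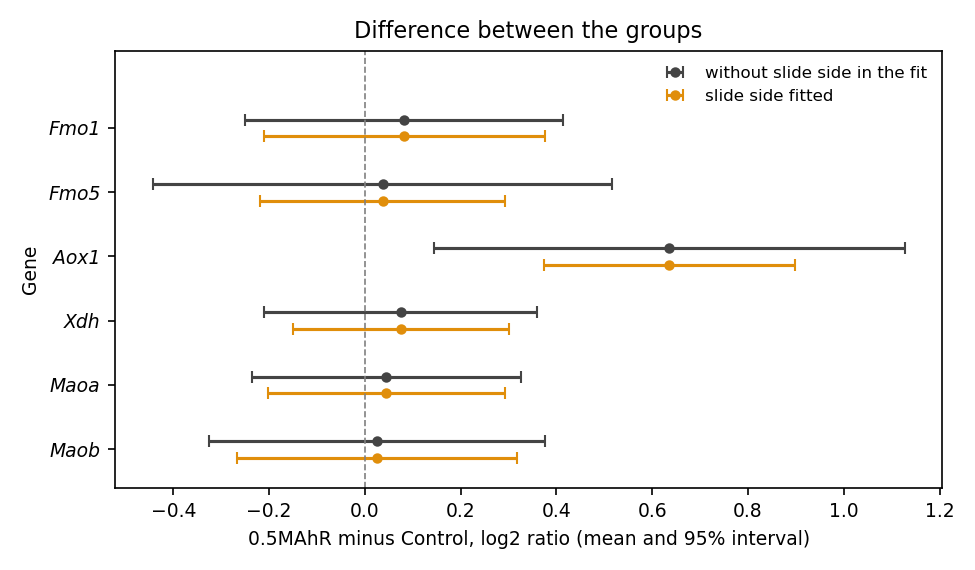
Difference of 0.5MAhR minus Control in log2 ratio for the 6 tested genes, as the estimate with its 95% interval (not adjusted for the number of genes) without slide side in the fit and with slide side fitted. The Aox1 interval lies above 0 in both fits (0.14 to 1.13 and 0.37 to 0.90), and the intervals of the other 5 genes span 0.

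Against the reference RNA, all 6 tested genes had more signal in liver in both groups. The test leaves out the spread of the reference, and dye bias was not measured, because every array had liver in Cy5. Since genes were also filtered on the liver channel, genes dim in liver, Fmo4 among them, were left out. In 0.5MAhR livers, and leaving out Maob, Aox1 had the highest mean ratio at 3.68 (12.8-fold over the reference), followed by Fmo5 at 3.11 (8.62-fold), Fmo1 at 2.89 (7.41-fold), Maoa at 1.82 (3.53-fold) and Xdh at 1.57 (2.96-fold). The SE of these means was 0.09 to 0.15 (n = 4). The ranges over the 4 livers overlapped between neighbours in this order, except between Fmo1 and Maoa.

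In Control livers Fmo5 came first with a mean ratio of 3.07 (8.41-fold), then Aox1 at 3.04 (8.23-fold), Fmo1 at 2.81 (7.0-fold), Maoa at 1.78 (3.42-fold) and Xdh at 1.49 (2.81-fold). The ranges of neighbours overlapped, except again between Fmo1 and Maoa. This order is one of ratios to the cell lines and not of transcript levels in liver, and it depended on the processing. With the scanner software's processed signals Fmo5, at 4.55 in 0.5MAhR and 4.70 in Control livers, stood above Aox1, at 3.62 in 0.5MAhR and 3.10 in Control livers. Maob has no place in the order, because its reference signal was not well above background. Its mean ratios of 2.31 in 0.5MAhR and 2.29 in Control livers are therefore not firm. A bound computed after between-array scaling was at least 4.96-fold over the reference in 0.5MAhR livers and at least 4.81-fold in Control livers. It holds for that scaling only. With median centring the Maob log2 ratio was lower, at 1.85 in 0.5MAhR and 1.86 in Control livers. Dye bias could also move this bound.

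All 6 passed the test against the reference in limma, with adjusted p of 1.23e-08 to 2.93e-07 in 0.5MAhR livers and 1.52e-08 to 4.09e-07 in Control livers. Of all genes, 42.8% passed as higher than the reference in 0.5MAhR livers and 42.5% in Control livers, and with slide side fitted these shares were 48.3% in 0.5MAhR and 47.9% in Control livers. In each group 34.9% passed as lower than the reference. A mean of at least 2-fold over the reference, which all 6 had, was reached by 18.7% of all genes in each group. The sizes moved with the normalization. When arrays were centred on their median in place of loess, the median Control ratio of all genes tested was -0.82 instead of 0.10, and Xdh in Control livers was then at 0.45 (adjusted p = 0.0126 in limma) and Maoa at 0.79. Relative to the median of all genes, Xdh stood 1.26 above it with median centring and 1.40 above it with loess.

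Further members of these families and pathways were taken from lists chosen with earlier results of these data known. Fmo2, a further flavin monooxygenase known mainly from lung, was at 0.39 ± 0.20 in 0.5MAhR and 0.79 ± 0.20 in Control livers (SD, n = 4 each), a difference of -0.40 (SE 0.14, adjusted p = 1.00 in limma, unadjusted p = 0.0210). It did not pass with slide side fitted either (adjusted p = 0.598 in limma), and its groups overlapped. Of the further aldehyde oxidases Aox2, Aox3 and Aox4, 0 of 3 had enough signal in liver to be tested.

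Of the genes for molybdenum cofactor synthesis and other molybdenum enzymes, 5 of 8 were tested and 0 passed. None had an unadjusted p under 0.05. Mocs2, which takes part in cofactor synthesis, differed by 0.08 (SE 0.16), and Mtarc2, an amidoxime reductase, by -0.11 (SE 0.25). Of the purine breakdown genes, 8 of 11 were tested, 0 passed in limma, and at an unadjusted p under 0.05 there were also 0. Their differences lay between -0.12 for the urate oxidase Uox (SE 0.17), which acts on the product of Xdh, and 0.12 for the ectonucleotidase Nt5e (SE 0.18). Of 18 genes for other amine oxidases and amine metabolism, 10 were tested and 0 passed in limma. At an unadjusted p under 0.05 there were 0 of them, or 3 with slide side fitted, against 6.35% of all genes with slide side fitted. The mitochondrial aldehyde dehydrogenase Aldh1b1 was at 4.39 ± 0.23 in 0.5MAhR and 4.64 ± 0.15 in Control livers (SD, n = 4 each), a difference of -0.25 (SE 0.14, adjusted p = 1.00 in limma). The lysyl oxidase Loxl2, an amine oxidase that acts on collagen, was at -0.17 ± 0.08 in 0.5MAhR and -0.43 ± 0.30 in Control livers, a difference of 0.26 (SE 0.15, adjusted p = 1.00 in limma). The groups overlapped for both genes.

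All 4 electron donors and reductases listed were tested. Without slide side in the fit 0 of them passed, against 0.00946% of all genes, and with slide side fitted 1 passed, against 0.0473%. This was Cyb5a, cytochrome b5, with 4.80 ± 0.33 in 0.5MAhR and 4.26 ± 0.29 in Control livers (SD, n = 4 each), a difference of 0.54 (SE 0.06, adjusted p = 0.0224 in limma with slide side fitted, or 1.00 without). The groups overlapped over all arrays. Markers of hepatocytes and of other cell types were compared too. Of 7 Kupffer cell markers 7 had a difference above 0, against 46.8% of all genes. Their median was 0.15, and 0 passed in limma or at an unadjusted p under 0.05. Their mean log2 ratio was 2.27 to 2.79 on 0.5MAhR arrays and 2.14 to 2.55 on Control arrays. With slide side fitted 1 of the 7 had an unadjusted p under 0.05, against 6.35% of all genes. Of 9 hepatocyte markers 8 had a difference below 0, with a median of -0.15, where 46.8% of all genes lay above 0. Again 0 passed in limma, with 0 at an unadjusted p under 0.05, or 1 with slide side fitted, against 6.35% of all genes. Of the markers tested, 4 of endothelial cells differed by -0.05 to 0.06 and 5 of stellate cells by -0.21 to 0.19. The 4 of cholangiocytes differed by -0.03 to 0.09 and 3 of blood cells by -0.0050 to 0.15. In these lists 0 passed in limma or at an unadjusted p under 0.05. With slide side fitted 1 stellate cell marker had an unadjusted p under 0.05, against 6.35% of all genes. The part of cell composition in the Aox1 difference was not tested.

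By pattern over the 8 arrays, after the mean of each slide side was subtracted, the 2 genes most like Aox1 among 6937 were Tmem205 (Pearson r of 0.949) and Dbp (0.938). For Fmo1 they were Krt20 (0.958) and Alox15 (0.949), and for Fmo5 Micu2 (0.988) and Atl3 (0.961). For Xdh they were Slc19a2 (0.972) and Macroh2a1 (0.971), for Maoa Copa (0.993) and Cxadr (0.987), and for Maob Grb7 (0.971) and Mgat4b (0.955). These are the highest of many correlations over 8 arrays that share a slide and a normalization, and are given as a description only.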

How the data were processed

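Liver RNA in Cy5 and reference RNA in Cy3 were compared on 8 two-colour Agilent arrays. Median spot and local background signals, deposited as intensity values, and the marks on spots were written by version 11.0.1.1 of Agilent's Feature Extraction, per the file headers. The deposited value table held log2 ratios, made by steps not given in the sources used here, with column medians of -0.0389 to -0.0326 and r of 0.997 to 0.998 with loess ratios without background correction, so scale and direction were settled and centring was not.

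Fits used limma 3.58.1 in R 4.3.3. Normexp (offset 50) corrected the background, and ratios were normalised by loess within each array, with control spots at weight 0. Spots marked as outliers were dropped before the spots of each probe were averaged. Probes were named by accession through a RefSeq table of GRCr8 (18005 of 30367 probes). A probe counted as well above background if more than 50% of its spots were, and was tested if so in Cy5 on at least 3 of 4 arrays of a group. The brightest probe stood for a gene. Tests used lmFit and eBayes over 10566 genes, two-sided, with Benjamini-Hochberg adjustment at 0.05, and were tested on simulated data. One unlisted gene lacked a value on 1 array, which the fit dropped. Intensities limit precision for dim probes, and the number of arrays limits it for all. Intervals are 95% for single genes.

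The genes and lists were chosen with earlier results of these data known. Named genes were the 7 oxidases, members of the lists past the threshold or otherwise up to 2 with the smallest p, the 2 genes most alike in pattern, and Cyp1a1. Nqo1, Ugt1a6, Cyp1a2 and Aldh3a1 were named after their values were seen. Alternatives changed the background correction, normalization, filter, probe rule, variance model, slide position and channel, and left out each array. One list member is not reported here.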

Additional observations from a re-analysis of the deposited data

How the results depend on the processing

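For 0.5MAhR against Control, 0 of the 6 tested oxidases passed in limma in the 32 alternatives run, and 6 of 6 lay above the reference in the 18 run for that test. Without a filter on dim probes Fmo4 was tested too, and 7 passed against the reference in 0.5MAhR and 6 in Control livers. Of all 27530 genes or unnamed probes, 12064 passed in 0.5MAhR and 12045 in Control livers in that setting. The additional gene was Fmo4, which was not well above background in either channel on any array. The Aox1 difference stayed above 0 in 32 of 32 alternatives, between 0.48 (without Control replicate 5) and 0.79 (without Control replicate 6), with adjusted p of 0.159 to 1.00. Without each array in turn its unadjusted p was 0.00445 to 0.0476, or 0.000228 to 0.00144 with slide side fitted. With the second position index as a block, which pairs arrays of different slide sides, it was 0.0652 (SE 0.28). Each of the other 5 differences turned negative under at least 1 alternative. With the scanner software's processed signals Fmo5 was at -0.15, Maoa at -0.0014 and Maob at -0.27. With an offset of 16, Fmo5 was at -0.030 and Maob at -0.011, Maob was at -0.0073 with median centring, and Fmo5 at -0.0031 with the deposited values. Within slide side 1 Maob was at -0.026, and within side 2 Fmo1 at -0.18. Leaving out 1 array gave -0.028 to 0.15 for Fmo1, -0.095 to 0.21 for Fmo5, 0.01 to 0.17 for Xdh, -0.017 to 0.13 for Maoa and -0.054 to 0.14 for Maob. With slide side fitted as well, values below 0 were -0.067 for Fmo1 and -0.058 for Fmo5 (both without 0.5MAhR replicate 4) and, without Control replicate 6, -0.0067 for Xdh and -0.10 for Maob, with -0.022 for Maoa. Without 0.5MAhR replicate 3 Maoa was then at -0.036 and Maob at -0.035, Maob was at -0.015 without 0.5MAhR replicate 4, and Fmo5 at -0.021 without Control replicate 5. The causes were not tested. The number of genes past the threshold in limma was 1 over all arrays. It was 5 with slide side as a block or as a random block, and 2 within side 1. It was 0 within side 2 (592 at an unadjusted p under 0.05), with the second position index as a block (76), with processed signals (551) and with genes well above background on all arrays (128). It was 0 without 0.5MAhR replicate 2 (180) or 3 (117) or Control replicate 5 (152) or 7 (149), and otherwise 1 to 2 without 1 array. With slide side fitted it was 1 to 11 without 1 array, with 11 without 0.5MAhR replicate 2 and 8 without Control replicate 7. Control ratios of Maob to the reference lay between 1.86 with median centring and 6.95 with processed signals. No paired analysis was possible because the groups share no replicate number (1 to 4 for 0.5MAhR and 5 to 8 for Control). The block on the second position index pairs arrays by place, not by replicate number.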
